A study of Mus musculus with 10 samples.

Results

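The acute phase response genes described here are 36 genes chosen by name from the 54532 genes of the deposited liver table, and all 36 passed the filter on low values, as did 13306 genes in all. The list holds plasma proteins that hepatocytes secrete during inflammation, receptors and factors that switch their genes on, and Ahsg, a plasma protein that is lowered in that state. Livers came from 5 mice called ASK1f/f and 5 called ASK1+hep, all of them C57BL/6J. All mice carried murine ASK1 cDNA behind a lox-stop-lox cassette in ROSA26. In ASK1f/f control littermates, which had no Cre, the cassette was intact, and in ASK1+hep mice Alb-Cre, driven by the albumin promoter in hepatocytes, had removed it. HFD feeding of all 10 mice began at 6 weeks of age and lasted 7 weeks, and a 5 h fast preceded the sampling. Poly-A RNA of the whole liver was sequenced, and levels are FPKM, in which reads are divided by gene length and library size. In bulk tissue, fewer cells of a type and less RNA per cell cannot be told apart.

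In the acute phase response, macrophages and other cells that sense infection or injury release IL-6, IL-1 and related cytokines. IL-6 acts on hepatocytes through its receptor and STAT3, and IL-1 acts through NF-kB, while C/EBP factors act on many of the same promoters. Hepatocytes then secrete serum amyloid A, fibrinogen, haptoglobin and other positive acute phase proteins, lower the synthesis of negative ones such as albumin, and make SOCS3, which limits STAT3 signalling.

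Depth was 14411830 to 16056102 reads on genes in ASK1f/f and 13367742 to 16163378 in ASK1+hep (n = 5 each). Map3k5, the gene of ASK1, was at 6.74, 6.88, 5.77, 4.71 and 19.8 FPKM in libraries labelled ASK1f/f replicates 1 to 5, against 16.4, 11.1, 7.68, 12.4 and 15.2 FPKM in ASK1+hep replicates 1 to 5 (0.60 ± 0.32 on the log2 scale, SE, exact permutation p = 0.159). The highest of the 10 values thus stood in the library labelled ASK1f/f replicate 5, against its label. Without that library the Map3k5 difference was 0.92 ± 0.20. All 7 hepatocyte markers, Alb among them, were present in every liver, with summed levels of 29639 to 40885 FPKM in ASK1f/f and 35024 to 44378 FPKM in ASK1+hep. Exocrine pancreas markers summed to at most 1.65 FPKM in any liver.

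The acute phase genes were spread widely among the control livers, because 2 of the 5 carried high levels of most of them. Libraries labelled ASK1f/f replicates 2 and 5 were the 2 highest ASK1f/f livers for 28 of 36 genes (77.8%), against 14.8% of all 13306 tested genes, and the 2 highest of all 10 livers for 24 genes. The pair was picked by the levels of these same genes, so a high share in the list was built in. These shares are a description and no test. Reads on the 36 genes made up 8.94% of all reads on genes in replicate 2 and 7.84% in replicate 5, but 4.84%, 5.40% and 4.97% in ASK1f/f replicates 1, 3 and 4 and 3.19% to 5.54% in ASK1+hep livers. The typical gene of the list lay above its own 10-liver median by 1.16 log2 units in replicate 2 and by 0.90 in replicate 5 (median over the 36 genes). The corresponding medians were between -0.23 and 0.08 in the other 3 ASK1f/f livers and between -0.57 and 0.20 in ASK1+hep livers. Replicate 2 was the highest of all 10 livers for 22 genes and replicate 5 for 8. At the low end, ASK1+hep replicate 3 was the lowest of all 10 livers for 20 genes. How often each liver was highest or lowest of all 10 over all tested genes was not counted. These ranks among 10 livers are therefore not read as particular to the list. ASK1+hep replicate 3 stood apart in other ways too, with 18391 genes with reads against 19263 to 20315 in the others. Hepatocyte markers went both ways in this liver. Its levels of Cps1 (94.9 FPKM, against 295 to 616), Apob (154 FPKM, against 215 to 362) and Alb (14690 FPKM) were the lowest of all livers. Its levels of Apoa1 (17110 FPKM) and Ttr (8129 FPKM) were the highest, while Tat and Hal were at neither end. The 7 markers summed to 40768 FPKM there, where sums over all livers ran from 29639 to 44378 FPKM. The part of these differences in its low acute phase levels was not tested.

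**Figure D1:**
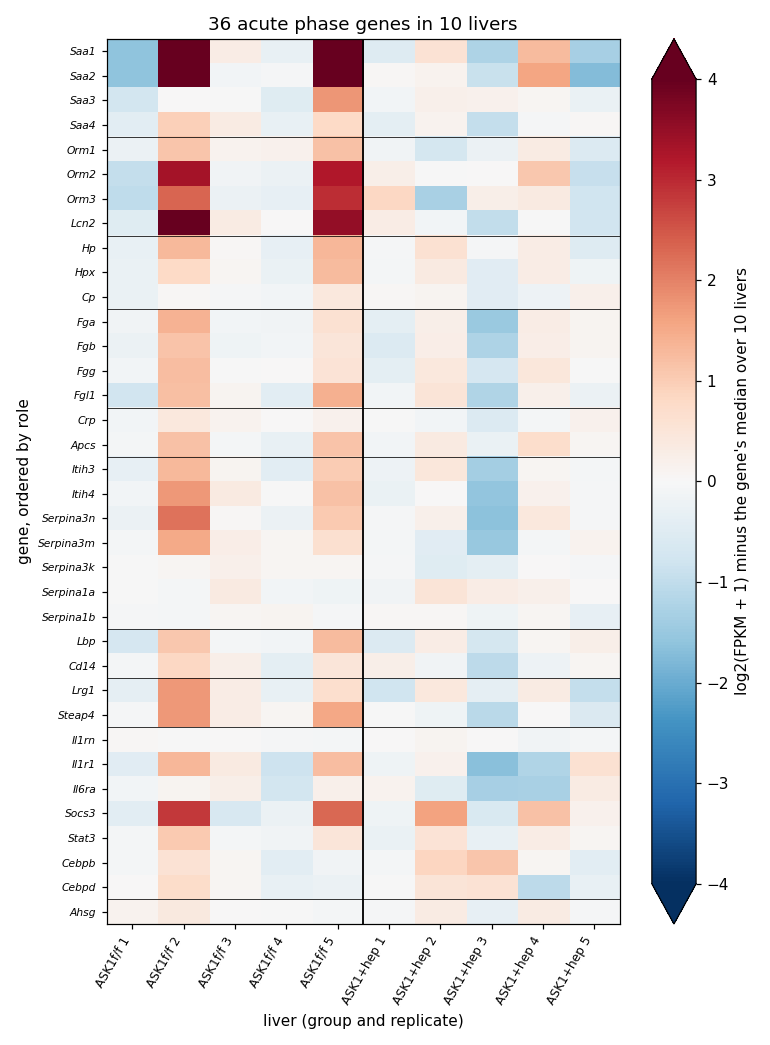
Level of each of the 36 genes (rows, ordered by role) in each of the 10 livers (columns), as log2(FPKM + 1) minus the gene's median over the 10 livers (colour scale, red above and blue below the median). ASK1f/f replicates 2 and 5 are red for most genes, with 22 and 8 genes at their highest there, and ASK1+hep replicate 3 is blue for many, with 20 genes at their lowest.

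Lists of markers for other cell types are given beside this pattern. The summed level of 11 neutrophil markers reached 19.0 FPKM in replicate 5 as labelled ASK1f/f, against 6.46 in replicate 2, 2.57 to 8.14 in the other ASK1f/f livers and 3.40 to 9.51 in ASK1+hep livers. Of these markers, Ly6g and Mpo were at most 0.0719 FPKM in any liver. Summed levels of 11 Kupffer cell and macrophage markers were 340 FPKM in replicate 5, 245 in replicate 2, 214 to 235 in the other ASK1f/f livers and 134 to 316 in ASK1+hep livers. Replicate 5 thus had the highest sum of both lists, while replicate 2 lay within the range of the other livers in both. Sums of 6 adipocyte markers moved with the pair among ASK1f/f livers, at 10.1, 73.3, 9.33, 24.4 and 200 FPKM in replicates 1 to 5 as labelled, but were 15.6 to 292 FPKM in ASK1+hep. They came mostly from Cfd (57.9 and 147 FPKM in the pair, 4.81 to 19.2 in the other 3) and Cidec (15.4 and 52.9 FPKM, against 3.96 to 5.29), while Adipoq and Plin1 were at most 0.0526 FPKM and Lep was at 0 in every liver. The 5 cholangiocyte markers also summed highest in the pair among ASK1f/f livers, at 22.5 and 32.7 FPKM against 13.5 to 21.1 FPKM, and to 15.6 to 28.3 FPKM in ASK1+hep. Most of each sum was Spp1 (19.96 and 29.25 FPKM in the pair, 11.68 to 18.66 in the other 3). Among ASK1f/f livers Sox9 was also highest in the pair, while Krt19 was highest in replicate 3 and Epcam in replicate 4. Krt7 was highest in replicate 5 and lowest in replicate 2. Sums of the remaining lists were 2.25 to 3.02 FPKM in ASK1f/f and 1.95 to 3.94 in ASK1+hep for lymphocytes, 26.4 to 38.8 and 21.7 to 38.6 for endothelial cells, and 22.7 to 31.8 and 16.3 to 29.6 for stellate cells and fibroblasts. The part of other cell types in the spread of the acute phase genes was not tested.

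Serum amyloid A1 and A2 are apolipoproteins that join high-density lipoprotein during inflammation, and their genes had the widest range of the list. Saa1 (ENSMUSG00000074115, chr7:46740497-46742980, minus strand) was at 14.8, 1557, 58.8, 38.0 and 904 FPKM in libraries labelled ASK1f/f replicates 1 to 5. In ASK1+hep replicates 1 to 5 it was at 32.6, 70.8, 19.3, 116 and 18.3 FPKM. The ASK1f/f livers thus formed a high pair and a low trio that overlapped with the ASK1+hep livers. Saa2 (ENSMUSG00000057465, chr7:46751790-46754313, plus strand) followed the same order of livers at the top, with 5.33, 1216, 16.9, 17.6 and 536 FPKM in ASK1f/f. Its ASK1+hep levels were 18.9, 20.2, 9.37, 57.0 and 4.76 FPKM. From the lowest to the highest ASK1f/f liver the level differed 105-fold for Saa1 and 228-fold for Saa2, against 6.35-fold and 12-fold among ASK1+hep livers. The mean genotype difference (ASK1+hep minus ASK1f/f, log2(FPKM + 1)) was -1.77 ± 1.16 (SE) for Saa1 and -1.98 ± 1.33 for Saa2. Neither passed limma's test, with adjusted p of 0.812 for both genes and exact permutation p of 0.302 for Saa1 and 0.325 for Saa2. They were -1.10 for Saa1 and -1.23 for Saa2 without the library labelled replicate 5, and -0.90 and -0.93 without replicate 2. Without replicates 2 and 5 of ASK1f/f, both differences changed sign, to 0.29 ± 0.64 for Saa1 and 0.42 ± 0.66 for Saa2. The longest coding transcripts of the 2 genes were 94.4% identical with an identical run of 99 bases, so how reads were divided between them is uncertain.

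Saa3, which macrophages and adipocytes also make, had a different profile in the high pair. It was at 1.03, 2.41, 2.39, 1.44 and 10.7 FPKM in libraries labelled ASK1f/f replicates 1 to 5, so that only the library labelled replicate 5 stood apart, and at 1.84 to 2.88 FPKM in ASK1+hep. Saa4, which is made constitutively, was at 562 FPKM in replicate 2 and 504 in replicate 5, against 215 to 369 in the other ASK1f/f livers and 149 to 322 in ASK1+hep livers. The differences between genotypes were -0.10 ± 0.38 for Saa3 and -0.51 ± 0.30 for Saa4 (SE), and neither passed the test (adjusted p = 0.962 and 0.812, limma). Without the library labelled replicate 5, the Saa3 difference turned to 0.32.

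Promoters of Saa1 and Saa2 are shown because both genes were high in the same livers. Their 250 bases before the start were 95.6% identical. The stretch around the match to the C/EBP motif is printed from RefSeq (GRCm38.p6), 5′ to 3′ on each gene's strand, with the matched letters in capitals. The Saa1 stretch is chr7:46743134-46743193 on the minus strand, and the Saa2 stretch is chr7:46751619-46751678 on the plus strand.
Saa1: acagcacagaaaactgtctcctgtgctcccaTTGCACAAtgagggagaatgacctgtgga
Saa2: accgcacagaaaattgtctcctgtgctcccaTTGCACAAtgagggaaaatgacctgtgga
The match began 182 bases before the start in Saa1 and 183 bases before it in Saa2.

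Orosomucoids are alpha-1 acid glycoproteins that bind drugs and lipids in plasma, and lipocalin 2 binds bacterial siderophores. Lcn2 (ENSMUSG00000026822) was at 1.90, 124, 4.10, 3.06 and 45.3 FPKM in libraries labelled ASK1f/f replicates 1 to 5, against 3.93, 2.74, 1.05, 3.02 and 1.36 FPKM in ASK1+hep replicates 1 to 5. Each of the 2 high ASK1f/f livers lay over 10 times above every other liver, and the other 3 overlapped with ASK1+hep. The genotype difference of Lcn2 was -1.98 ± 0.92 (SE), the lowest of all 13306 tested genes, with p = 0.0527 and adjusted p = 0.812 (limma) and an exact permutation p of 0.0952. It was -1.16 without ASK1f/f replicate 2, -1.52 without replicate 5 and -0.27 ± 0.30 without both.

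Orm2 and Orm3 were low in most livers and high in the same pair. Orm2 was at 4.10, 96.9, 7.94, 7.38 and 89.5 FPKM in libraries labelled ASK1f/f replicates 1 to 5, against 10.7, 8.78, 8.90, 19.8 and 4.22 FPKM in ASK1+hep. Orm3 was at 1.39, 23.5, 3.11, 2.89 and 36.9 FPKM in ASK1f/f and at 7.59, 1.00, 4.79, 5.26 and 1.78 FPKM in ASK1+hep. Orm1, the most abundant of the family, showed the same pair with a smaller step, at 549, 1414, 725, 731 and 1462 FPKM in ASK1f/f and 588, 402, 558, 824 and 445 FPKM in ASK1+hep. The difference of Orm1 was -0.73 ± 0.30 (SE, limma p = 0.0327, adjusted p = 0.812, exact permutation p = 0.0794), and it was -0.56 without replicate 2, -0.55 without replicate 5 and -0.28 ± 0.25 without both. Orm2 and Orm3 differed by -0.96 ± 0.81 and -0.87 ± 0.74 (adjusted p = 0.817 and 0.818, limma, and exact permutation p = 0.405 and 0.365), by -0.42 and -0.32 without replicate 5, by -0.39 and -0.47 without replicate 2, and without that pair by 0.52 and 0.40 in the opposite direction. Transcripts of the 3 genes were 86.5% to 91.0% identical, and reads may have been divided between them.

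A C/EBP motif also stood in the promoters of Orm2 (chr4:63362298-63362357, plus strand) and Orm3 (chr4:63356006-63356065, plus strand), whose 250 bases were 89.0% identical. The stretches are printed to show the matched letters, in capitals, 120 and 121 bases before the start.
Orm2: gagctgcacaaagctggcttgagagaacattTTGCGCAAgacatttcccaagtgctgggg
Orm3: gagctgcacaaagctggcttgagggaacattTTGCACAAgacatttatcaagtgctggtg

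**Figure D2:**
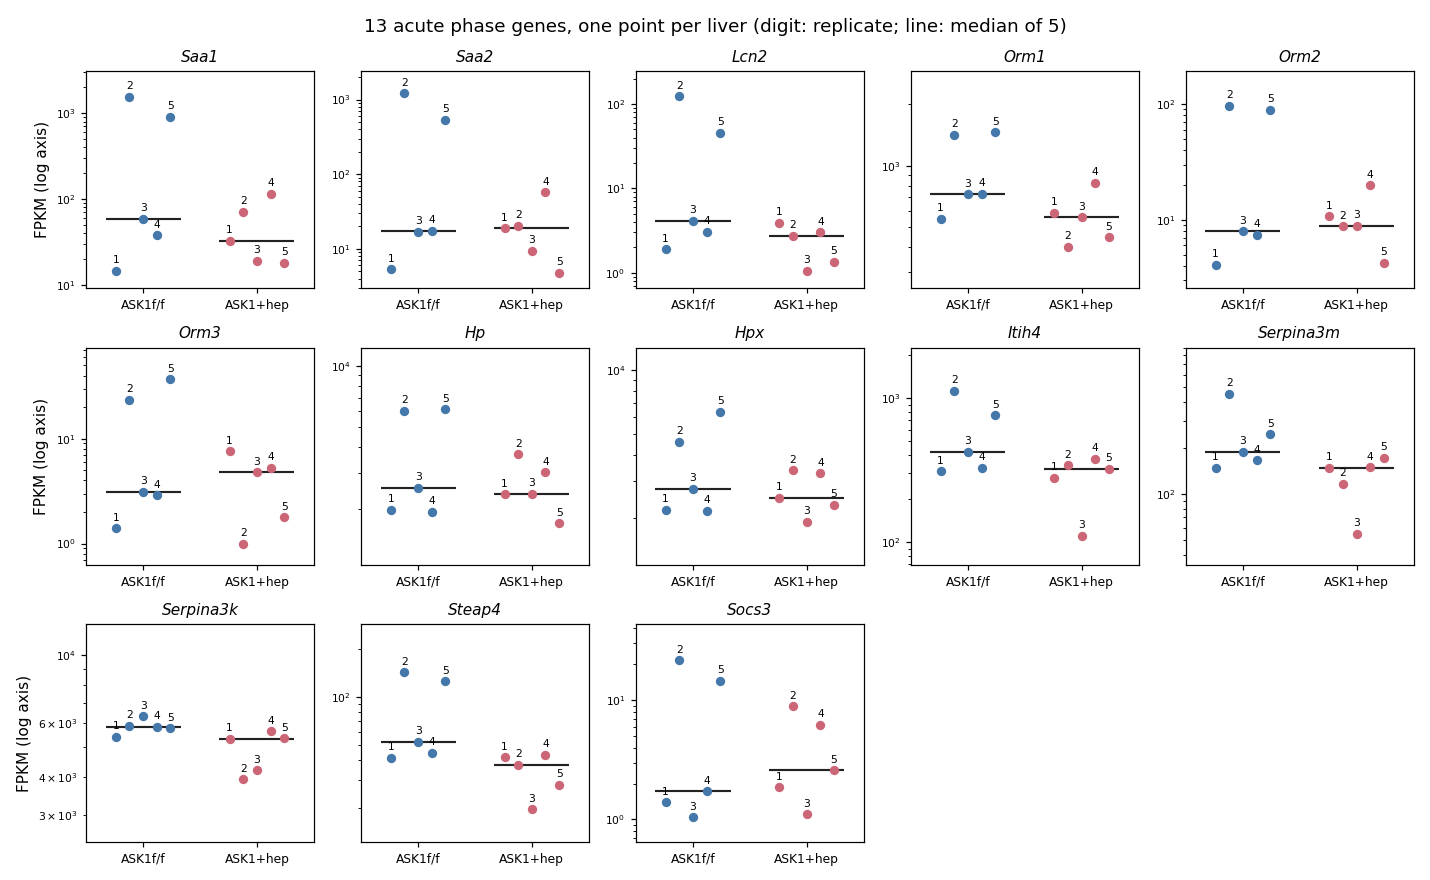
FPKM (log axis, a separate range in each panel) of the 13 genes given liver by liver, with a point per liver, its replicate number above it and a line at the median of each group of 5. ASK1f/f replicates 2 and 5 are the 2 highest points for every gene shown except Serpina3k, where the 5 ASK1f/f livers lie between 5408 and 6319 FPKM.

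Haptoglobin and hemopexin carry free haemoglobin and haem, and ceruloplasmin carries copper. Hp was at 1971, 6015, 2527, 1930 and 6137 FPKM in libraries labelled ASK1f/f replicates 1 to 5, against 2356, 3694, 2365, 3018 and 1701 FPKM in ASK1+hep. Hpx was at 2200, 4605, 2768, 2170 and 6381 FPKM in ASK1f/f and at 2499, 3369, 1933, 3266 and 2316 FPKM in ASK1+hep. Already abundant genes were thus higher again in the pair, 2.09-fold to 3.11-fold over the median of the other 3 ASK1f/f livers. Genotype differences were -0.35 ± 0.38 for Hp and -0.33 ± 0.32 for Hpx (SE, adjusted p = 0.845 and 0.837, limma, and exact permutation p = 0.413 and 0.381). Without the library labelled replicate 5 they were -0.12 for Hp and -0.093 for Hpx, and without ASK1f/f replicate 2 they were -0.13 and -0.21. Cp varied less, from 75.4 to 125 FPKM in ASK1f/f and from 66.1 to 106 FPKM in ASK1+hep.

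Fibrinogen is built of 3 chains encoded side by side on chromosome 3, and the 3 genes kept close to each other across livers. Fga, Fgb and Fgg were at 2979, 2034 and 2885 FPKM in ASK1f/f replicate 2 and at 1718, 1278 and 1790 FPKM in the library labelled replicate 5. In the other ASK1f/f livers the ranges were 1015 to 1040 FPKM for Fga, 773 to 854 for Fgb and 1115 to 1217 for Fgg. For the chains, replicate 2 was therefore 1.59 to 1.73 times above replicate 5. In ASK1+hep livers Fga ranged from 399 to 1396 FPKM, Fgb from 386 to 1109 and Fgg from 753 to 1647, with ASK1+hep replicate 3 the lowest for all 3. Fgl1, a fibrinogen-like protein secreted by hepatocytes, was at 130 and 152 FPKM in the pair and at 32.4 to 60.3 FPKM in the other ASK1f/f livers. Genotype differences of these 4 genes were between -0.56 and -0.38, and none passed the test (adjusted p 0.812 to 0.827, limma). Without ASK1f/f replicate 2 they were between -0.29 and -0.15, and without ASK1+hep replicate 3 between -0.25 and -0.19. Fgl1 alone also moved over 1.5 times without the library labelled replicate 5, from -0.47 to -0.19.

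Of the pentraxins, serum amyloid P is an acute phase protein in mice and C-reactive protein changes little there. Apcs, which encodes the first, was at 156 FPKM in replicate 2 and 152 in replicate 5, against 56.0 to 65.5 FPKM in the other ASK1f/f livers and 57.0 to 111 FPKM in ASK1+hep. Crp ranged from 74.6 to 108 FPKM in ASK1f/f and from 55.0 to 90.4 FPKM in ASK1+hep. Differences between genotypes were -0.23 ± 0.31 for Apcs and -0.25 ± 0.15 for Crp (SE).

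Among protease inhibitors, some members varied with the pair and others were nearly level. Itih4, a heavy chain of the inter-alpha-trypsin inhibitor family, was at 310, 1121, 425, 329 and 757 FPKM in libraries labelled ASK1f/f replicates 1 to 5. In ASK1+hep it was at 280, 340, 111, 377 and 322 FPKM, and the groups overlapped between 310 and 377 FPKM. The difference was -0.96 ± 0.41 (SE, limma p = 0.0374, adjusted p = 0.812, exact permutation p = 0.0794), -0.65 without ASK1+hep replicate 3, -0.69 without ASK1f/f replicate 2, -0.83 without replicate 5, and -0.41 ± 0.37 without ASK1f/f replicates 2 and 5. Itih3 of the same family was at 474 and 390 FPKM in the pair, 145 to 207 FPKM in the other ASK1f/f livers and 74.5 to 267 FPKM in ASK1+hep.

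Serpina3 genes encode relatives of antichymotrypsin. Serpina3m was at 147, 450, 187, 166 and 245 FPKM in libraries labelled ASK1f/f replicates 1 to 5, against 147, 115, 54.8, 149 and 172 FPKM in ASK1+hep, which gave a difference of -0.87 ± 0.35 (SE, limma p = 0.0287, adjusted p = 0.812, exact permutation p = 0.0556). It was -0.60 without ASK1+hep replicate 3, -0.61 without ASK1f/f replicate 2 and -0.83 without the library labelled replicate 5. Serpina3n was at 1300 FPKM in replicate 2 and 592 FPKM in the library labelled replicate 5, against 247 to 299 FPKM in the other ASK1f/f livers and 92.1 to 389 FPKM in ASK1+hep. Serpina3k, the most abundant of the 36 genes, was at 5408, 5887, 6319, 5835 and 5770 FPKM in ASK1f/f and at 5337, 3927, 4204, 5643 and 5352 FPKM in ASK1+hep. Here replicates 2 and 5 did not stand apart. All but 1 of the ASK1+hep values, 5643 FPKM in replicate 4, lay under the lowest ASK1f/f value. The difference of -0.27 ± 0.20 did not pass limma's test (p = 0.193, adjusted p = 0.814), while the exact permutation test on this gene alone gave p = 0.0159, where the smallest p that 5 against 5 livers allow is 0.00794. The deposited gene models of Serpina3k and Serpina3m overlap from their shared start on the plus strand of chromosome 12, and their transcripts were 91.4% identical, so values of the 2 genes may share or lose reads.

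Alpha-1 antitrypsin genes were nearly flat. Serpina1a ranged from 1016 to 1456 FPKM in ASK1f/f and from 1029 to 1609 FPKM in ASK1+hep, and Serpina1b from 2190 to 2464 FPKM and from 1821 to 2452 FPKM. Serpina1a was 1 of the 2 genes of the list with a positive genotype difference (0.19 ± 0.17, SE). Transcripts of these 2 genes were 92.6% identical, and the Serpina1b model overlaps that of Serpina1d.

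Lbp and Cd14 encode proteins that bind bacterial lipopolysaccharide and pass it on. Lbp was at 37.5 and 43.6 FPKM in the pair, against 10.7 to 16.6 FPKM in the other ASK1f/f livers and 10.4 to 21.8 FPKM in ASK1+hep. Cd14 was low everywhere, from 1.30 to 4.32 FPKM in ASK1f/f and from 0.462 to 2.54 FPKM in ASK1+hep. The genotype difference was -0.43 for each gene, and for Lbp it was -0.19 without the library labelled replicate 5 and -0.24 without replicate 2.

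Steap4, a metalloreductase of hepatocytes and adipocytes that cytokines induce, had the lowest p of the list. It was at 41.2, 142, 51.9, 44.4 and 125 FPKM in libraries labelled ASK1f/f replicates 1 to 5, against 41.5, 37.3, 19.6, 42.9 and 27.8 FPKM in ASK1+hep. The groups overlapped only in a narrow range, since 2 ASK1+hep livers, at 41.5 and 42.9 FPKM, lay above the lowest ASK1f/f liver at 41.2 FPKM. Its difference was -1.09 ± 0.37 (SE, limma p = 0.012, adjusted p = 0.812, exact permutation p = 0.0238). Steap4 was also the 1 gene of the list that kept an unadjusted limma p under 0.05 when either ASK1f/f replicate 2 or the library labelled replicate 5 was left out. Without both the difference was -0.48 ± 0.25 (SE, limma, adjusted p = 0.946). Lrg1, a leucine-rich glycoprotein of plasma, was at 1666 FPKM in replicate 2 and 804 FPKM in the library labelled replicate 5, against 394 to 617 FPKM in the other ASK1f/f livers and 258 to 672 FPKM in ASK1+hep.

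The promoter of Steap4 is shown since it was the only one of the 28 available that held all 3 motifs searched. Its stretch at chr5:7960226-7960413 (plus strand) has in capitals, in this order, an NF-kB motif 226 bases before the start, a STAT motif at 116 and a C/EBP motif at 87. Itih4 (chr14:30886394-30886453, plus strand) had a STAT motif 51 bases before the start.
Steap4: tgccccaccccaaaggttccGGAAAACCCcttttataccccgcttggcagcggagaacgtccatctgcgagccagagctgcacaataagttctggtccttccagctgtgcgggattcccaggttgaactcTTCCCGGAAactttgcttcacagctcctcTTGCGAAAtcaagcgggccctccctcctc
Itih4: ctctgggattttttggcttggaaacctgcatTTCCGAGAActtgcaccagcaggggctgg

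Over the list, promoters of 28 of the 36 genes were matched by symbol in RefSeq, and Orm1, Hp, Fgl1, Serpina3m, Serpina3k, Lbp, Cd14 and Cebpd had none there. Searched on both strands of the 250 bases before the start, TTGCNNAA (C/EBP) was found in 15 of the 28 genes (53.6%), against 9.56% of all 32851 promoters. TTCNNNGAA (STAT) was found in 6 genes (21.4%, against 7.02%), and GGNNTTTCC (NF-kB) in 5 (17.9%, against 4.93%). The 28 genes had 32 promoters, at most 3 per gene, and a gene was counted if any of its promoters matched. The shares of all promoters count each promoter singly, so the units differ and the gene shares may be raised. Near-identical promoters, those of Saa1 and Saa2 and those of Orm2 and Orm3, were counted separately. The shares are therefore a description and no test. The STAT motif stood in Fga, Fgb, Itih4, Apcs, Socs3 and Steap4. The NF-kB motif stood in Saa3, Cp, Serpina3n, Il1rn and Steap4. Matches of Lcn2, Cp, Il1rn, Socs3, Serpina1b and Ahsg lay inside the longer gene models of the deposited table. No match overlapped one of another motif. A match describes letters and shows no binding.

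Of the receptors and factors of the pathway, Socs3 varied most. This inhibitor of STAT3 signalling was at 1.39, 21.5, 1.04, 1.73 and 14.6 FPKM in libraries labelled ASK1f/f replicates 1 to 5, against 1.87, 8.86, 1.10, 6.21 and 2.59 FPKM in ASK1+hep. The same ASK1f/f pair was highest, and ASK1+hep replicates 2 and 4 came next. These 2 were also the highest ASK1+hep livers for Saa1 and Saa2. The difference of Socs3 was -0.32 ± 0.71 (SE, adjusted p = 0.919, limma, exact permutation p = 0.69), and it turned to 0.19 without replicate 2, to 0.06 without replicate 5 and to 0.87 ± 0.45 without both.

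Stat3, the factor that Socs3 restrains and that itself responds to IL-6, was at 27.3 FPKM in replicate 2 and 18.3 FPKM in replicate 5, against 11.3 to 11.9 FPKM in the other ASK1f/f livers and 10.1 to 19.0 FPKM in ASK1+hep. Il1r1, the signalling receptor of IL-1, was at 31.3 and 28.9 FPKM in the pair, 6.21 to 15.5 FPKM in the other ASK1f/f livers and 2.99 to 18.4 FPKM in ASK1+hep. Il6ra, the IL-6 receptor, did not follow the pair, with 7.08 to 14.9 FPKM in ASK1f/f and 4.40 to 15.9 FPKM in ASK1+hep. Il1rn, which encodes the antagonist of IL-1 receptors, stayed at 0.399 to 0.509 FPKM in ASK1f/f and 0.318 to 0.573 FPKM in ASK1+hep, which were 26 to 47 reads per liver.

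Cebpb and Cebpd encode C/EBP factors that act on acute phase promoters. Cebpb was highest in ASK1f/f replicate 2 (326 FPKM, against 162 to 225 FPKM in the other 4) but reached 389 and 462 FPKM in ASK1+hep replicates 2 and 3, and it was the other gene with a positive genotype difference (0.29 ± 0.29, SE). Cebpd was at 11.2 FPKM in replicate 2, 5.03 to 6.85 FPKM in the other ASK1f/f livers and 2.53 to 10.0 FPKM in ASK1+hep. For both genes the library labelled replicate 5 was under the median of ASK1f/f replicates 1, 3 and 4. ASK1+hep replicate 3, the lowest liver for 20 genes of the list, was the highest ASK1+hep liver for both. Ahsg (fetuin-A), the negative acute phase protein of the list, was at 2435 to 3368 FPKM in ASK1f/f and 2047 to 3218 FPKM in ASK1+hep.

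The 2 high ASK1f/f livers were not alike in every gene. Relative to the median of ASK1f/f replicates 1, 3 and 4, replicate 2 was over 2-fold higher for 24 genes and the library labelled replicate 5 for 19, with 17 in common. Over 10-fold in both were 5 genes, Saa1, Saa2, Lcn2, Orm2 and Socs3. Replicate 2 exceeded replicate 5 for 26 of the 36, by 2.73-fold for Lcn2, 2.27-fold for Saa2, 2.20-fold for Serpina3n, 2.15-fold for Cebpd and 2.07-fold for Lrg1. Replicate 5 exceeded replicate 2 most for Saa3, where the ratio of replicate 2 to 5 was 0.226, and for Orm3 (0.637), Hpx (0.722) and Cp (0.758). With a single liver of each kind, these ratios have no replicate error. Shares of all tested genes were not computed for these counts, and the pair was picked by the levels of the same genes. The counts are therefore not read as particular to the list.

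**Figure D3:**
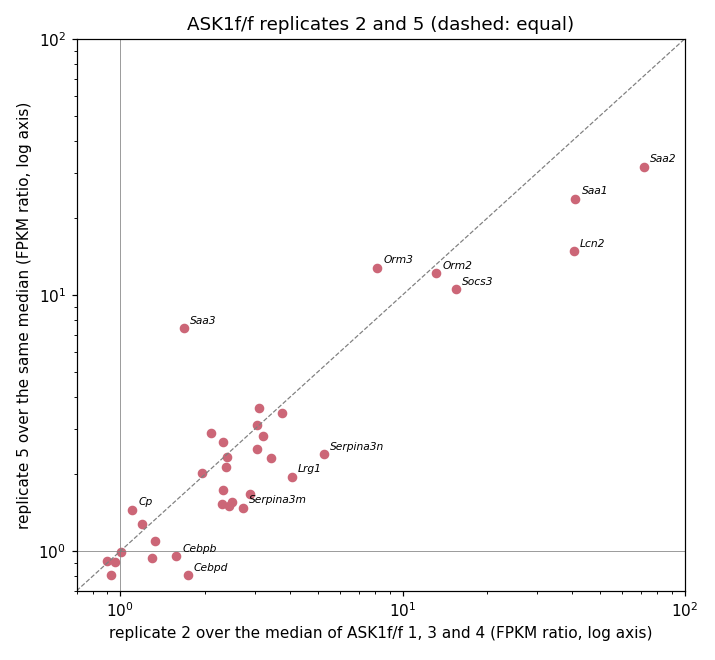
Ratio of FPKM to the median of ASK1f/f replicates 1, 3 and 4 for each of the 36 genes in ASK1f/f replicate 2 (x axis, log) and in the library labelled ASK1f/f replicate 5 (y axis, log), with a dashed line at equality. Saa2, at 71.9 and 31.7, lies farthest out, Saa3 is the point far above the line, and 26 genes lie below it.

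Spread was compared with that of all tested genes, as a description. The SD of log2(FPKM + 1) among ASK1f/f livers had a median of 0.69 over the 36 genes and 0.13 over all 13306. Among ASK1+hep livers the medians were 0.52 and 0.22. The SD was larger in ASK1f/f than in ASK1+hep for 22 of 36 genes (61.1%), while this held for 25.0% of all genes. An SD over 1 was found for 7 genes of the list in ASK1f/f (19.4%, against 0.361% of all genes) and for 2 in ASK1+hep (5.56%, against 0.699%). Those 7 were Saa2 (3.36), Saa1 (2.92), Lcn2 (2.42), Orm2 (2.05), Orm3 (1.78), Socs3 (1.65) and Serpina3n (1.04). The added 1 lowers the SD of genes near or under 1 FPKM, and such genes can pass the filter. All tested genes were not matched to the list by level. The part of level in these gaps between the list and all genes was not tested. Without replicates 2 and 5 the median SD of the list in ASK1f/f was 0.23, and 2 genes (5.56%) were more spread there than in ASK1+hep, Saa3, which was also so with 5 livers, and Serpina1a, which was not. Over all tested genes the median SD was then 0.11, and 17.2% were more spread in ASK1f/f. Replicates 2 and 5 were picked as the highest ASK1f/f livers for most of the list, so a lower SD without them was built in. The 3 livers left are also set against all 5 ASK1+hep livers, so these counts do not compare the spread of the genotypes.

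**Figure D4:**
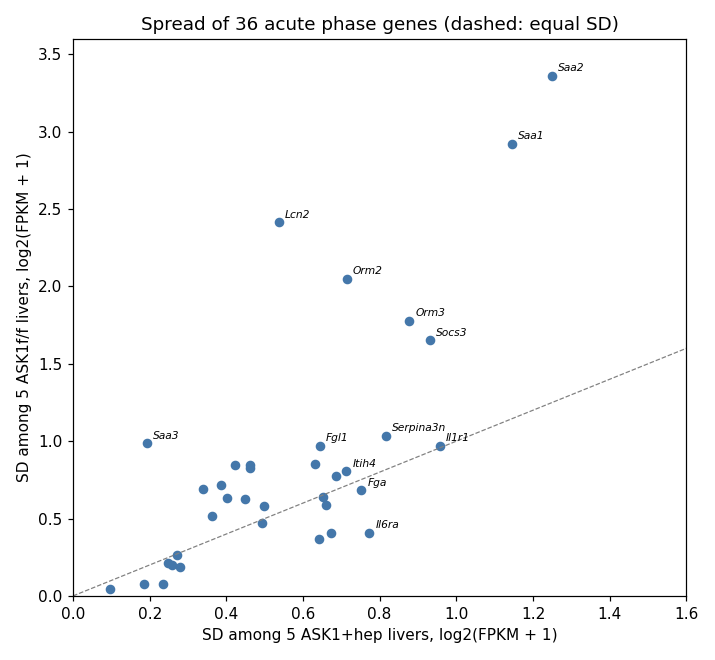
SD of log2(FPKM + 1) of each of the 36 genes among the 5 ASK1+hep livers (x axis) and the 5 ASK1f/f livers (y axis), with a dashed line at equal SD. The 22 genes above the line include Saa2 at 3.36 and Saa1 at 2.92, while genes such as Il6ra and Cebpb lie below it.

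Genotypes were compared over the whole table, since the design asks whether hepatic ASK1 changes liver expression on HFD. The direction was uniform, with 34 of 36 genes lower in ASK1+hep, and the median difference was -0.44, against -0.0065 over all tested genes, of which 52.0% were lower. None of the 36 genes passed the adjusted threshold (limma, Benjamini-Hochberg, 0 of 13306 genes or 0% passed, and 768 had an unadjusted p under 0.05), and their adjusted p ranged from 0.812 to 0.973. At an unadjusted p under 0.05, 4 genes were lower in ASK1+hep, Steap4, Serpina3m, Orm1 and Itih4, against 2.72% of all genes in that direction, and 0 were higher, against 3.05%. The groups overlapped for all 36 genes, and 0.864% of tested genes had groups that did not. Limma-voom on the recovered reads gave 4 genes at an unadjusted p under 0.05 and 0 past the adjusted threshold. No share of all genes is given for that fit, so its count is not read as particular to the list.

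The genotype difference was also read without the 2 high control livers. These were picked by the levels of the same genes, so leaving them out was bound to raise most differences. The size of that move is a description and no test. The difference moved by over 1.5 times for 16 genes without the library labelled ASK1f/f replicate 5 and for 21 genes without ASK1f/f replicate 2. With replicate 5, the library labelled ASK1f/f that goes against its label, left out, 31 of 36 genes were lower, the median was -0.32 and Steap4 alone had an unadjusted p under 0.05, against 2.79% of all genes in that direction. Without ASK1f/f replicate 2, 30 genes were lower, the median was -0.26 and again only Steap4 had such a p, against 1.98%. Without both, 18 genes were lower and 18 higher, the median was -0.0037 and the differences ranged from -0.48 for Steap4 to 0.87 for Socs3. Of these, 0 lower genes had an unadjusted p under 0.05 (2.61% of all genes) and 1 higher gene did, Saa3 (0.43 ± 0.18, SE, adjusted p = 0.931, limma, against 2.56% of all genes). With quality weights for the libraries, in which ASK1+hep replicate 3 had the lowest weight (0.254), 29 genes were lower, the median was -0.22 and 0 genes had an unadjusted p under 0.05. Leaving out ASK1+hep replicate 3 alone moved the median about as far as leaving out ASK1f/f replicate 2, to -0.26, with 32 genes lower. That liver was the lowest for many of these genes, so this move too is a description and no test.

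**Figure D5:**
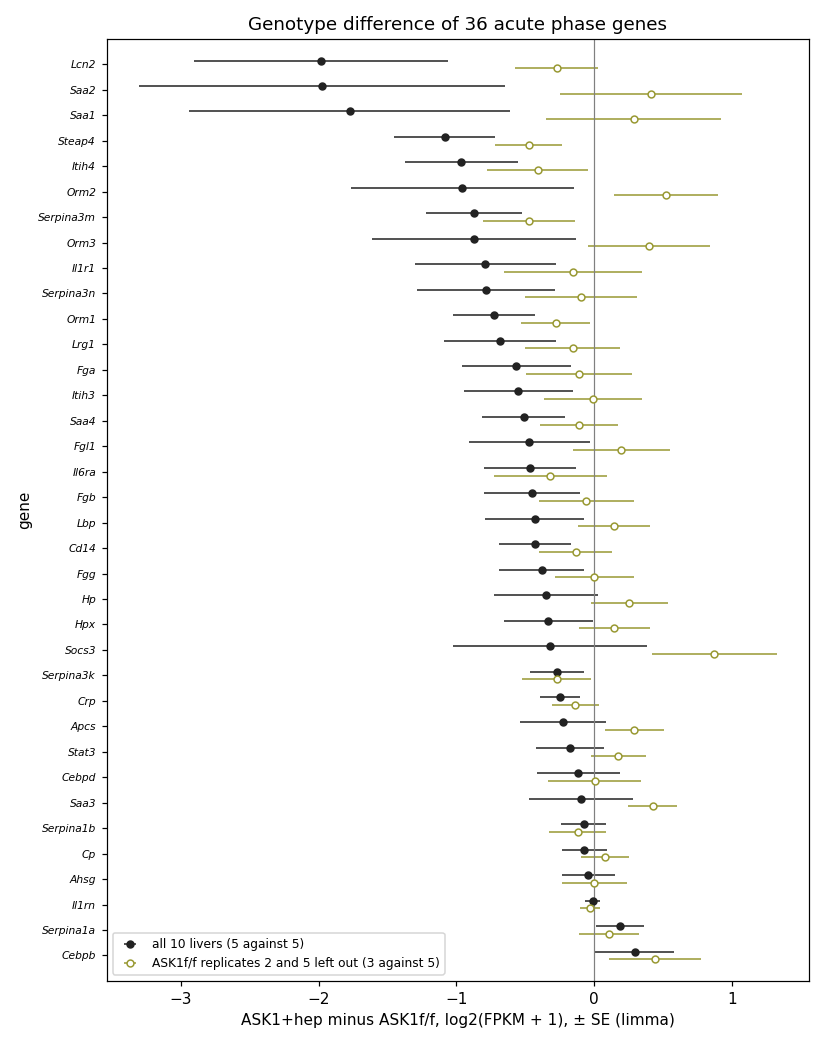
Genotype difference (ASK1+hep minus ASK1f/f, log2(FPKM + 1)) with its SE from limma for each of the 36 genes, from all 10 livers (filled) and with ASK1f/f replicates 2 and 5 left out (open). Filled points lie left of 0 for 34 genes, with Lcn2 and Saa2 both at -1.98, and open points lie on both sides, 18 to the left and 18 to the right.

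Other genes of the response were read from 3 lists. Of 30 further positive acute phase proteins, 21 were tested, 18 of them were lower in ASK1+hep, the median difference was -0.16 and 0 passed the adjusted threshold. Replicates 2 and 5 were the 2 highest ASK1f/f livers for 11 of these 21 genes (52.4%, against 14.8% of all tested genes). Vnn1, a pantetheinase, was at 31.4, 15.2, 32.9, 27.8 and 18.8 FPKM in libraries labelled ASK1f/f replicates 1 to 5, against 33.5, 40.2, 34.8, 45.2 and 50.8 FPKM in ASK1+hep. It was lowest in the 2 livers where the acute phase genes were highest, and its groups did not overlap (0.72 ± 0.21, SE, limma p = 0.00548, adjusted p = 0.804, exact permutation p = 0.00794). The complement genes C4b (-0.48 ± 0.16, SE, exact permutation p = 0.0159) and C9 (-0.59 ± 0.20, exact permutation p = 0.0238) had unadjusted limma p under 0.05 in the lower direction. So did C3 (-0.59 ± 0.25, exact permutation p = 0.0635), which is named after its values were seen, and all 3 had an adjusted p of 0.812. Mt1, a metallothionein that is also named after its values were seen, was at 36.2, 1233, 185, 39.0 and 341 FPKM in ASK1f/f and 24.6 to 107 FPKM in ASK1+hep (-1.63 ± 0.85, adjusted p = 0.812, limma).

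Of 11 negative acute phase proteins tested, 7 had higher means in ASK1+hep, with a median difference of 0.26, and 0 passed the adjusted threshold. All 7 were at their highest of all 10 livers in ASK1+hep replicate 3, the library with the lowest quality weight, and without it the median was 0.098. Ttr, the thyroxine and retinol carrier transthyretin, was at 4209, 3336, 3584, 3845 and 3651 FPKM in ASK1f/f and at 4269, 5635, 8129, 5864 and 3758 FPKM in ASK1+hep (0.52 ± 0.24, SE, limma p = 0.0472, adjusted p = 0.812, exact permutation p = 0.0317). Without ASK1+hep replicate 3 its difference was 0.37 ± 0.19 (SE). Replicates 2 and 5 were the 2 highest ASK1f/f livers for 1 of these 11 genes.

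Of the cytokines that start the response, Il6 and Tnf were hardly seen in liver RNA, while Il1a and Il1b had reads in every liver. Il6 had 1 read in ASK1f/f replicate 2, 1 read in ASK1+hep replicate 4 and 0 in the other 8 livers, where 3 reads would be 0.0725 to 0.0956 FPKM. Tnf had 1 to 6 reads per liver and did not pass the filter on low values. Il1b was at 0.283, 0.999, 0.736, 1.65 and 0.647 FPKM in libraries labelled ASK1f/f replicates 1 to 5, against 0.492, 0.284, 1.03, 1.95 and 0.533 FPKM in ASK1+hep, so that the 2 livers with high acute phase genes were not its highest (-0.03 ± 0.23, adjusted p = 0.981, limma). Of 47 genes for cytokines, receptors and signalling, 40 were tested, 29 were lower and 11 higher in ASK1+hep, the median was -0.11 and 0 had an unadjusted p under 0.05. In this list replicates 2 and 5 were the 2 highest ASK1f/f livers for 14 of 40 genes (35.0%). Bcl3, a partner of NF-kB named after its values were seen, was among them, at 30.9 and 29.3 FPKM in that pair against 10.0 to 10.7 FPKM in the other ASK1f/f livers and 7.13 to 22.9 FPKM in ASK1+hep.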

How the data were processed

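Poly-A RNA of 10 livers was analysed from FPKM values deposited by the authors, who cleaned reads (fastp, per the labels), mapped them with Hisat2, counted them with FeatureCounts and scaled them to gene length and library size. Build and counting options are not given in the sources used here. Of 54532 gene IDs, 54409 were in GENCODE M21 (GRCm38) and 53462 had the same coordinates there (35 of the 36 genes described). The deposited gene length, a column of another kind, was used with FPKM to recover reads. In each library 100% of values were whole reads within 0.01. A gene was tested if 5 or more livers had 10 or more reads (after scaling to the median depth) and the total was 15 or more, using limma 3.58.1 (R 4.3.3) on log2(FPKM + 1) (trend option on, p adjusted by Benjamini-Hochberg over all tested genes). Log2 differences on this scale understate changes of low genes. The authors' DESeq2 test on counts was not repeated.

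Genes given liver by liver were those with an unadjusted p under 0.05, the 6 with the largest SD among ASK1f/f livers and the 3 with the highest mean FPKM, and from other lists up to 3 genes with the lowest p under 0.05, with Il6, Il1b, Tnf and Map3k5. For these a two-sided exact permutation test over all 252 splits into 5 and 5 was run. The members and lists were chosen with earlier results of these data known. On simulated data for 13306 genes of this comparison, 200 of which changed by 2 log2 units, 88% were recovered, 4.86% of 185 calls were false and 0 were called with no change. The changed genes were drawn from all tested genes, with noise independent between genes. The 36 genes had a median difference of -0.44 and a larger median SD in ASK1f/f (0.69, against 0.13 over all genes). The 88% therefore does not apply to them. Nothing in the sources says how litters were shared, and libraries differed by more than sampling noise (lowest chi-square per degree of freedom 19.2). Transcripts were aligned with Biopython, and RefSeq promoters were of GRCm38.p6. Alternatives were another filter or none, log2(FPKM + 0.1), limma-voom, quality weights, scaling by all reads, the replicate block, only livers whose sample name starts with CC and leaving out each liver. Leaving out 2 control livers, and single livers for listed genes and Map3k5, was chosen after seeing the data. Figures were drawn with matplotlib.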

Additional observations from a re-analysis of the deposited data

Results flagged for a closer look

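Each of 74 groups of 5 values (36 genes and Map3k5, in each genotype) was examined for a single liver whose gap to the nearest other liver took up more than 0.71 of the group's range, which chance gives in about 1 of 20 groups, and 3 were found. Saa3 in the library labelled ASK1f/f replicate 5 was at 10.7 FPKM with the next at 2.41 FPKM (gap over range 0.857). Serpina1a in ASK1f/f replicate 3 was at 1456 FPKM with the next at 1117 FPKM (0.769). Map3k5 in the library labelled ASK1f/f replicate 5 was at 19.8 FPKM with the next at 6.88 FPKM (0.856). A high pair, such as ASK1f/f replicates 2 and 5 for Saa1, cannot be found by this measure.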

How the results depend on the processing

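None of the 36 genes passed the adjusted threshold in any of 19 alternatives (lowest adjusted p 0.383), and 19 genes kept their direction in all of them. The number with an unadjusted p under 0.05, 4 with all livers, was 0 with quality weights, 1 without ASK1f/f replicates 2 and 5, and 1 to 8 when any single liver was left out. It was 8 in the absence of ASK1f/f replicate 1, 1 in that of ASK1f/f replicate 2 or 5, and 2 in that of ASK1+hep replicate 2 or 3. Of all 13306 tested genes, 768 had such a p with all livers and 687 without ASK1f/f replicates 2 and 5. In the lower direction, 1.98% had it without ASK1f/f replicate 2 and 2.79% without replicate 5. For the other settings, limma-voom among them, no share of all genes is given, so their counts are not read as particular to the list. Leaving out single livers gave 0 to 1 genes of the whole table past the adjusted threshold, the 1 without ASK1+hep replicate 5. Without ASK1f/f replicates 2 and 5, the count more spread in ASK1f/f fell from 22 to 2. That fall, and the reversals given next, follow in part from picking these livers by their high levels. Directions reversed without this pair for Saa1 (0.29), Saa2 (0.42), Saa3 (0.43), Orm2 (0.52), Orm3 (0.40), Hp (0.26), Hpx (0.15), Cp (0.081), Fgg (0.000205), Fgl1 (0.20), Apcs (0.29), Lbp (0.14), Socs3 (0.87), Stat3 (0.18), Cebpd (0.0055) and Ahsg (0.0020). With quality weights they reversed for Saa3 (0.11), Cp (0.022), Apcs (0.030), Socs3 (0.20) and Ahsg (0.039). Ranges over single livers left out spanned 0 for Saa3 (-0.31 to 0.32), Cp (-0.14 to 0.036), Il1rn (-0.041 to 0.022), Socs3 (-0.67 to 0.19), Stat3 (-0.29 to 0.026), Cebpd (-0.27 to 0.14) and Ahsg (-0.11 to 0.051). Blocking on the replicate number gave 5 genes of the list with an unadjusted p under 0.05 and 0 past the adjusted threshold. Of the 4 genes without the block, Orm1 was lost under it, and Lcn2 and Il1r1 were added. Same-numbered livers deviated together with r of 0.0212 to 0.174 across genes, and 4 of 5 matched their own number best. Sample names of same-numbered livers also carry consecutive numbers in replicates 1 to 4, but not in replicate 5. No label calls them pairs, and the main fit and the exact test take no account of pairing. Among livers whose sample name starts with CC (4 against 4), 5 genes had such a p and the median was -0.59. With 5 livers a group, the low values of Il6 and Tnf are limited by depth. The cause of these changes was not tested.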
